A study of Mus musculus with 21 samples.

Results

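Gas5 and 7 small nucleolar RNA host genes (Snhg1, Snhg3, Snhg6, Snhg7, Snhg8, Snhg11 and Snhg12) were followed in single muscle fibers of the mouse. Members were all array probes whose gene name equals 1 of these 8 symbols, which gave 12 of the 55681 probes on the array and 8 of its 35527 gene names. The array was a single-color Agilent whole mouse genome expression array, and each of the 21 arrays held the amplified RNA of 1 myofiber. Of these arrays 11 came from type 1 fibers of the soleus and 10 from type 2B fibers of the extensor digitorum longus (EDL), all from untreated CD1 mice aged 3 months with no engineered allele named in the labels. The fibers came from 9 mice, 6 mice for each type, and 3 of the mice gave fibers of both types. The type was set by gel electrophoresis of myosin heavy chain protein in a clipped piece of each fiber. Every type 1 fiber came from soleus and every type 2B fiber from EDL, so fiber type and muscle cannot be told apart.

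A small nucleolar RNA (snoRNA) guides chemical modification or processing of ribosomal RNA, and in mammals it is usually cut from an intron of a longer host transcript. Gas5 (growth arrest specific) carries C/D box snoRNAs in its introns, and its spliced exons make a noncoding RNA that is known to bind the glucocorticoid receptor. Many host transcripts start with a terminal oligopyrimidine tract, the mark of mRNAs for ribosomal proteins whose translation depends on mTOR, and the spliced host RNA is commonly removed by nonsense-mediated decay. A probe in an exon reads the host RNA and not the snoRNA it releases.

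The probe sequences below are the 60 bases laid on the array, with places in the mouse genome build mm9. The array's annotation assigns each to a transcript of its gene, and whether the bases are exonic or intronic is not given in the sources used here. The 3 Gas5 probes are shown for their fitted differences between the fiber types, -0.23, -1.75 and -0.26, which were not tested against each other. They lie on the plus strand of chromosome 1, at chr1:162966369-162966428 for the first, chr1:162967350-162967409 for the middle and chr1:162968608-162968667 for the last. In the middle probe the capitals mark the 25 bases, from base 1 to base 25, that are the reverse complement of the Gas5 reverse primer used in the study (gcatgttcaaaagctaaatgttatg), the only primer for a member that shares at least 15 bases with a member probe. By quantitative PCR on fibers other than those on the arrays, the paper reported Gas5 higher in slow than in fast fibers. The paper states that this PCR bore out its array data for every lncRNA tested, Gas5 and Dancr among them. On the same arrays no probe of either gene was called in the main fit described below, which used a different test and set of probes. In the last probe the capitals mark ATTAAA, a variant of the polyadenylation signal, which starts at base 41. The array's probes were searched on the given strand for AATAAA or ATTAAA, and 13.7% of them held either.
Gas5 first probe (A_51_P130544): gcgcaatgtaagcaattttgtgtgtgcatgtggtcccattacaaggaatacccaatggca
Gas5 middle probe (A_55_P2178378): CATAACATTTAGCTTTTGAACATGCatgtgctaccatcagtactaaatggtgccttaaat
Gas5 last probe (A_66_P134809): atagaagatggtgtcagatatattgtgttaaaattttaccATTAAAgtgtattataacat

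The 4 other probes below are shown because the results turn on them, Snhg6 for its difference between the types and Snhg1, Snhg12 and Snhg11 for the way they varied together across fibers. Snhg6 was read at chr1:9932175-9932234 on the minus strand, Snhg1 at chr19:8798913-8798972, Snhg12 at chr4:131866864-131866922 and Snhg11 at chr2:158206508-158206567, the last 3 on the plus strand. No capitals are used here because neither polyadenylation hexamer occurs in them.
Snhg6 (A_66_P122415): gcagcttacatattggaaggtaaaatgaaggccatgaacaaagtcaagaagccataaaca
Snhg1 (A_55_P2117710): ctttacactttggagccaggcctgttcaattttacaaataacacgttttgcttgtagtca
Snhg12 (A_66_P100249): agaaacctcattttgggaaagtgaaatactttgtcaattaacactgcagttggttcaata
Snhg11 (A_55_P2047809): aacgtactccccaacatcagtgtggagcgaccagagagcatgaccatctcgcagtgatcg

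Signals are given as log2 of the quantile normalized signal, and differences as type 2B minus type 1 on that scale. A probe was tested where at least 50% of the fibers of a type had a signal that was positive and significant over the background, and it was called at a Benjamini-Hochberg adjusted p of 0.05 over all 46977 probes tested. Of the 12 member probes 10 were tested, and limma called 0 of them by either adjustment. Over all probes tested, the call was made for 7.56% with Benjamini-Hochberg and for 1.43% with Bonferroni. At an unadjusted p under 0.05 the count was 2 of 10 member probes, Snhg6 and the middle probe of Gas5, against 18.5% of all probes. The methods' t-test, run on the same fibers, also called 0 of the 10 after adjustment. The fitted difference was negative for 7 of the 10 and positive for 3, with a median of -0.09 beside 0.03 over all probes.

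The arrays lay on 6 slides and differed in how many spots they read. On the 8 arrays of slide 1 (4 of each type) between 73.2% and 79.8% of spots were well above background, and on the 13 arrays of the other slides between 38.7% and 63.1%. The markers of the types followed the labels, with 28 of 29 sarcomere probes called, except in the type 1 fiber S6.4 (myofiber 6 of mouse 4). Its Myh7 signal, the slow myosin, was 9.22 against 15.53 to 16.28 in the other 10 type 1 fibers, and its Myh2 signal, the myosin of type 2A fibers, was 15.22 against at most 13.03. So the data go against its label. Differences with and without it are given for the middle and last Gas5 probes, Snhg6 and Snhg11, and no member probe was called without it. The names of the type 2B fibers E13.3 and E12.5 are exchanged between the scanner files, used here, and the authors' table, which leaves the type unchanged and the mouse of each uncertain, so results that rest on the mouse are also given with the mice of these 2 fibers exchanged, an alternative chosen after the data were seen. Of the probes for other cell types, 0 of 5 endothelial and 0 of 5 blood probes were called by limma (1 and 0 at an unadjusted p under 0.05, and 0 of each by the methods' t-test). The endothelial receptor gene Tek gave -1.78 with an adjusted p of 0.052 in limma, and 1 endothelial probe was called with the 75th percentile scaling, the stricter filter or the replicate block. Satellite cell markers had 3 of 6 probes called lower in type 2B, all for Ncam1, and connective tissue markers 1 of 4, for Col3a1.

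Gas5 was well above background in all 21 fibers at its first probe, the brightest of the 3, and did not differ detectably there. The signal ran from 10.705 over a median of 11.54 to 12.40 in the 11 type 1 fibers and from 9.92 over 11.07 to 12.42 in the 10 type 2B fibers. The groups overlapped over nearly their whole range, with 3 type 2B fibers above the type 1 median. The fitted difference was -0.23 with a standard error of 0.31 and an adjusted p of 0.78 in limma. Its 95% interval, not adjusted for the number of probes, was -0.88 to 0.42, so the data leave room for a level from 0.545 to 1.34 times that of type 1. The last probe, near the end of the transcript, gave 8.14, 9.41 and 10.47 as the lowest, median and highest signal in type 1 and 8.44, 9.11 and 10.104 in type 2B. At this probe 3 type 1 fibers lay above every type 2B fiber, and the difference of -0.26 with a standard error of 0.28 was not called (adjusted p = 0.71 in limma). Without S6.4, the lowest type 1 fiber at this probe, the difference was -0.38 (adjusted p = 0.52 in limma).

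The middle probe of Gas5 read lower in type 2B in 9 of 10 fibers against the type 1 median, and was not called. Type 1 fibers ran from 4.21 over 6.63 to 9.14, and type 2B fibers from 3.00 over 4.89 to 9.81. The fiber at 9.81 was E13.3, a type 2B fiber of mouse 3 by its label, which lay above every other fiber, while the next type 2B fiber was at 6.07 and 4 type 2B fibers lay below every type 1 fiber. This probe was dim, being well above background in 10 of 11 type 1 and 6 of 10 type 2B fibers. The difference was -1.75 with a standard error of 0.68, and limma gave an unadjusted p of 0.018 and an adjusted p of 0.15. Without E13.3 the difference was -2.27 and was called (adjusted p = 0.0086 in limma), and without the 7 fibers of mouse 3 it was -2.54 and was called (adjusted p = 0.048 in limma). With the mice of E13.3 and E12.5 exchanged, the difference without mouse 3 was -1.53 and was not called (adjusted p = 0.43 in limma), and without mouse 5 it was -2.48 and was called (adjusted p = 0.0057 in limma). Without S6.4, the lowest of the type 1 fibers here, it was -2.01 with an adjusted p of 0.074 in limma.

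Over mouse means the same probe lay between 5.39 and 9.14 in the 6 mice with type 1 fibers, and between 3.00 and 5.86 in the 6 with type 2B fibers. An exact two-sided permutation test over all 924 groupings of the mouse means gave p = 0.0043, with 0.0022 the smallest it can give. It takes the 3 mice with both types as separate, and it was run for each of the 12 member probes with no adjustment. The limma fit on mouse means gave -2.52 with an adjusted p of 0.028. Both values turn on the mouse of E13.3. With the exchange the type 2B mouse means reached 7.94, the permutation test gave an exact p of 0.030, and the fit on mouse means gave -2.27 and no call (adjusted p = 0.12 in limma). Where spots without the background flag were set to missing the difference was -1.06, and with another background correction (normexp) it was -0.82, neither called. With the mouse as a fixed block it was -1.17, and the methods' t-test, on linear values, gave -0.26. Ncam1 and Col3a1 moved the same way as this probe. The summed satellite cell signal spanned 10.64 to 13.05 in the type 1 fibers and 9.34 to 12.17 in the type 2B fibers, with Pax7 well above background in 8 of 11 and 2 of 10 fibers and Myf5 in 1 of 11 and 6 of 10. The summed connective tissue signal spanned 8.13 to 12.21 in the type 1 fibers and 7.73 to 9.43 in the type 2B fibers, with Pdgfra well above background in 2 of 11 and 1 of 10. By quantitative PCR the paper found Pax7, Ncam1 (as CD56), Myf5 and Myod1 lower in single myofibers than in satellite cells. The summed satellite cell signal is that of 6 probes, 3 of them for Ncam1. Across fibers the middle Gas5 probe correlated with this sum at 0.72 in type 1 and 0.14 in type 2B, and with the summed connective tissue signal at 0.45 and 0.61. With the summed endothelial signal it gave -0.12 and 0.04, and with the summed blood cell signal 0.35 and -0.52. The part of these cells in the Gas5 result was not tested.

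**Figure D1:**
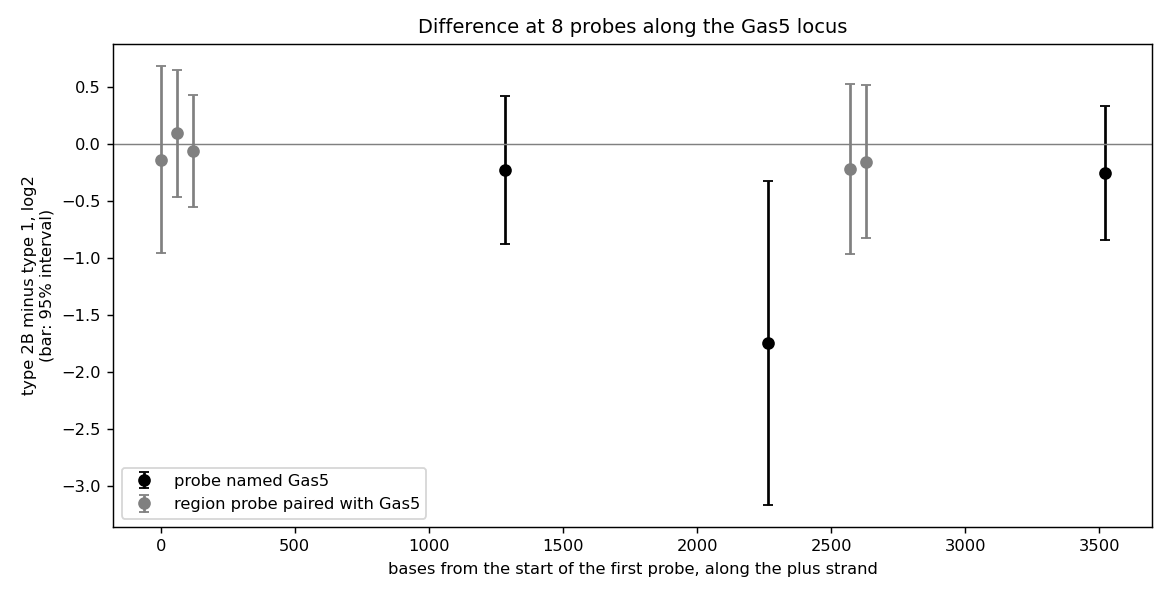
Difference between the fiber types (type 2B minus type 1, log2, with its 95% interval) at 8 probes along the Gas5 locus, by distance in bases from the start of the first of them. Black points are the 3 probes named Gas5 and grey points the 5 region probes paired with the gene. Of the points 7 lie between -0.26 and 0.09, and the middle Gas5 probe, 2264 bases along, lies at -1.75.

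The 5 region probes that the study's tables pair with Gas5 under the name of a genomic interval gave no call. Of these probes 3 lie side by side, from chr1:162965086-162965145 to chr1:162965206-162965265, upstream of the first Gas5 probe, with differences of -0.14, 0.09 and -0.06. The other 2 lie at chr1:162967656-162967715 and chr1:162967716-162967775, downstream of the middle probe, and gave -0.22 and -0.15. So the plot of differences along the locus shows the middle probe apart from its neighbors on both sides. A test of that difference between probes was not run. The 3 upstream probes read unlike things across fibers: their correlation with the share of spots well above background on the array was -0.80 for the first, 0.72 for the second and -0.02 for the third (deviations from the type mean, 21 fibers, a description), and the first of these has a GC content of 80% against a median of 43.3% over the array.

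Snhg6, a host of C/D box snoRNAs, had higher values in type 2B fibers and was not called. The type 1 fibers ran from 8.17 over a median of 9.65 to 10.03, and the type 2B fibers from 9.62 over 10.03 to 11.18. Of the type 2B fibers 9 lay above the type 1 median, 5 of the 10 lay above every type 1 fiber, and 5 of the 11 type 1 fibers lay below every type 2B fiber. The difference was 0.79 with a standard error of 0.26, that is 1.73-fold with an unadjusted 95% interval of 1.19 to 2.53, and limma gave p = 0.0065 and an adjusted p of 0.073. The probe was well above background in all 21 fibers. Over mouse means the values ran from 8.78 to 10.03 for type 1 and from 9.62 to 10.64 for type 2B, and the exact two-sided permutation test gave p = 0.039, also with the mice of E13.3 and E12.5 exchanged. The difference stayed positive in all 17 alternatives, from 0.48 to 0.97, and in all 32 fits with a mouse or a fiber left out, from 0.52 to 0.86, and limma called it in 0 of them (lowest adjusted p = 0.055). The low end was 0.51 over mouse means (0.48 with the exchange) and 0.54 with the mouse as a fixed block. It was 0.97 on slide 1 alone and 0.66 on the other slides, and 0.82 without S6.4.

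**Figure D2:**
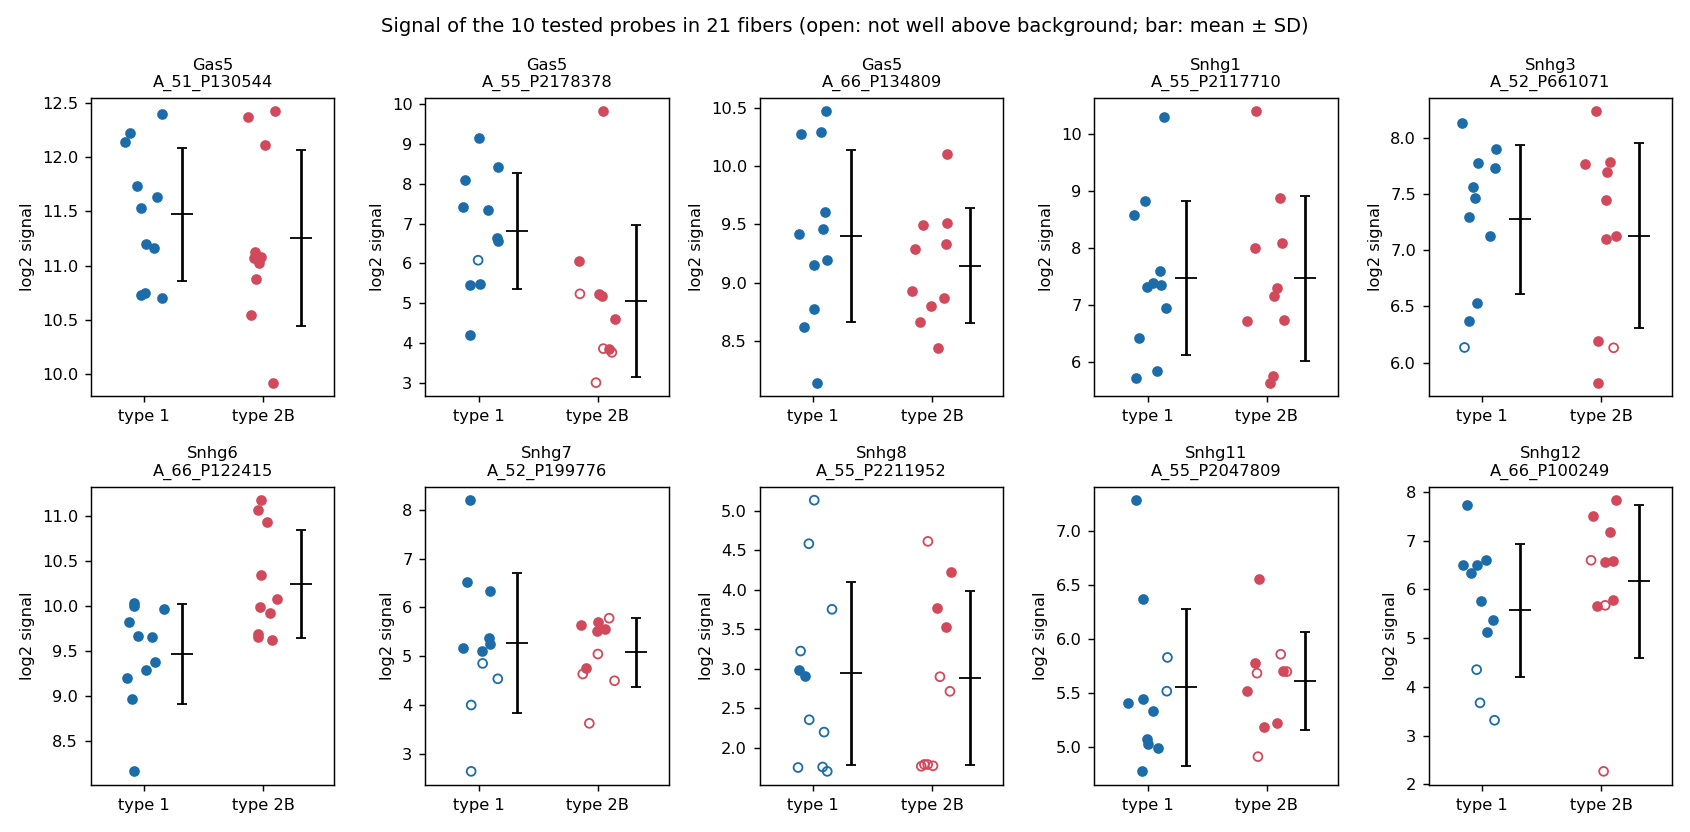
Signal (log2, quantile normalized) of the 10 tested member probes in the 21 fibers, each panel with its own axis, with type 1 in blue and type 2B in red. Filled points are fibers in which the spot was well above background, open points those in which it was not, and the black bar gives the mean and SD of the 11 or 10 fibers. The groups overlap in every panel.

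Snhg1, which hosts C/D box snoRNAs, had the same mean signal over the fibers of both types. It ran from 5.71 over 7.34 to 10.30 in type 1 and from 5.64 over 7.22 to 10.39 in type 2B, well above background in all 21 fibers. The difference was -0.00082 with a standard error of 0.57, and its interval of -1.18 to 1.18 is wide, so changes of up to about 2.27-fold either way were within reach. Over mouse means the fit gave -0.76, not called (adjusted p = 0.56 in limma). Snhg3, a host of H/ACA box snoRNAs, ran from 6.13 over 7.46 to 8.13 in type 1 and from 5.82 over 7.28 to 8.23 in type 2B. Its difference was -0.15 with a standard error of 0.32 (adjusted p = 0.87 in limma). Snhg3, Snhg12 and Snhg7 also read higher on slide 1, a comparison that was not tested. Snhg3 had 7.84 ± 0.25 (SD, n = 8) on slide 1 and 6.82 ± 0.64 (SD, n = 13) on the others, Snhg12 6.65 ± 0.94 and 5.36 ± 1.53, and Snhg7 5.67 ± 1.06 and 4.88 ± 1.08 over the same arrays.

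Snhg12 had its lowest value in fiber E13.3. Type 1 fibers ran from 3.31 over 5.77 to 7.73 and type 2B fibers from 2.26 over 6.58 to 7.83, where the lowest was E13.3 and the next type 2B fiber was at 5.67. The difference was 0.60 with a standard error of 0.60 (adjusted p = 0.67 in limma), and without E13.3 or any other single fiber or mouse it stayed uncalled, from 0.28 to 1.04, with -0.14 without mouse 3 where the 2 names were exchanged. E13.3 was also the lowest type 2B fiber for Snhg1, Snhg8 and Snhg11, as it was the highest for the middle Gas5 probe. These low ranks were close or dim: Snhg1 was at 5.64 in E13.3 and 5.75 in E7.7, and Snhg8 at 1.766 and 1.771. Neither Snhg8 nor Snhg11 was well above background in E13.3. A second Snhg12 probe (A_55_P2338160, chr4:131866668-131866727) was well above background in 0 of 21 fibers and was not tested.

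The remaining hosts were dim. Snhg7, which hosts H/ACA box snoRNAs, was well above background in 7 of 11 type 1 and 5 of 10 type 2B fibers. It ran from 2.65 over 5.18 to 8.19 in type 1 and from 3.63 over 5.29 to 5.78 in type 2B, so that 3 type 1 fibers lay above every type 2B fiber and 1 below every one (adjusted p = 0.89 in limma). The type 1 fibers spread more (SD 1.43) than the type 2B fibers (SD 0.70), with fiber S7.2 at 8.19. Snhg8 was well above background in 2 of 11 and 3 of 10 fibers, with a difference of -0.03 and an interval of -1.01 to 0.94. Snhg11 was read by a probe well above background in 9 of 11 and 6 of 10 fibers, with a difference of 0.06 and an interval of -0.51 to 0.63. The highest Snhg11 value, 7.28, was in S6.4, and without this fiber the difference was 0.23 (adjusted p = 0.67 in limma). The second Snhg11 probe (A_51_P267933, chr2:158211554-158211613) was well above background in 0 of 11 and 1 of 10 fibers and was not tested.

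**Figure D3:**
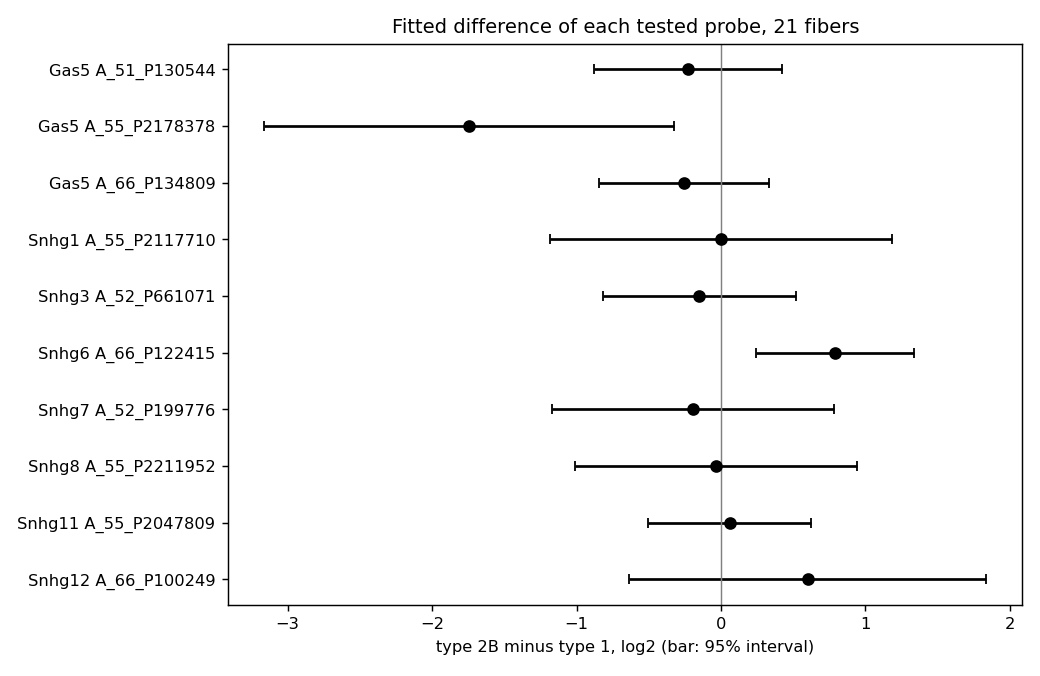
Fitted difference between the types (type 2B minus type 1, log2) for the 10 tested member probes, with its 95% interval not adjusted for the number of probes, over 21 fibers. The intervals of Snhg6 (0.25 to 1.34) and of the middle Gas5 probe (-3.16 to -0.33) leave out 0, and neither probe was called after adjustment.

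The covariation among the hosts was described across fibers by Pearson correlation of deviations from the type mean, with no test, since fibers share mice, slides and an amplification. Over the 28 pairs made by the main (brightest) probes of the 8 genes, 18 correlations were positive, and the median was 0.08. For each gene the median correlation with all other probes lay between -0.02 and 0.05. With slide group (slide 1 or the others) taken out as well, the median was 0.03 and 16 were positive.

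The highest correlation was that of Snhg1 and Snhg12. Snhg1 and Snhg12 correlated at 0.66 over 21 fibers, at 0.57 in the 11 type 1 and 0.75 in the 10 type 2B fibers, and at 0.72 with slide group taken out. The rank correlation was 0.74, and Pearson's value without the 2 fibers farthest from the median of Snhg1 was 0.59. The 95th percentile of the correlation with all other probes was 0.41 for Snhg1, 0.53 for Snhg3, 0.50 for Snhg6 and 0.42 for Snhg12. Snhg3 and Snhg12 correlated at 0.60 (0.48 with slide group taken out), Snhg3 and Snhg6 at 0.49 (0.42), and Snhg6 and Snhg12 at 0.48 (0.43). Of these the pair of Snhg3 and Snhg6 lay below the 95th percentile of both genes, and that of Snhg6 and Snhg12 below that of Snhg6. The 6 pairs among Snhg1, Snhg3, Snhg6 and Snhg12, a group chosen after the values were seen, ranged from 0.33 to 0.66, the lowest being Snhg1 with Snhg3, below the 95th percentile of both. Part of the Snhg3 values moved with the arrays, since Snhg3 correlated at 0.71 with the share of spots well above background and Snhg1, Snhg6 and Snhg12 at -0.12, 0.25 and 0.30, and its part in these pairs was not tested beyond the values with slide group taken out.

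The Gas5 probes differed in their correlation with these hosts. The last probe correlated at 0.52 with Snhg1, 0.42 with Snhg3, 0.42 with Snhg6 and 0.37 with Snhg12, and at 0.55, 0.60, 0.43 and 0.48 with slide group taken out, where the 95th percentile of its correlation with all other probes, slide group not taken out, was 0.48. The first probe gave -0.17, 0.12, -0.20 and -0.24 with the same 4 genes. The 3 Gas5 probes correlated with each other at 0.57 (first and middle), 0.34 (middle and last) and 0.29 (first and last). The middle probe also ran opposite to Snhg11, with a correlation of -0.69 in all fibers, -0.79 within type 1 and -0.68 within type 2B, and it was -0.72 without the 2 fibers farthest out at the Gas5 probe. S6.4, the lowest type 1 fiber at this Gas5 probe (4.21) and the highest fiber at Snhg11 (7.28), is kept in all of these values but that within type 2B. No correlation without S6.4 is given. The first probe gave -0.54 with Snhg11, and the last -0.40, which was -0.05 without the 2 fibers farthest out. The 5th percentile of the correlation of Snhg11 with all other probes was -0.37. Snhg11 correlated with the 4 hosts between -0.18 and 0.13.

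**Figure D4:**
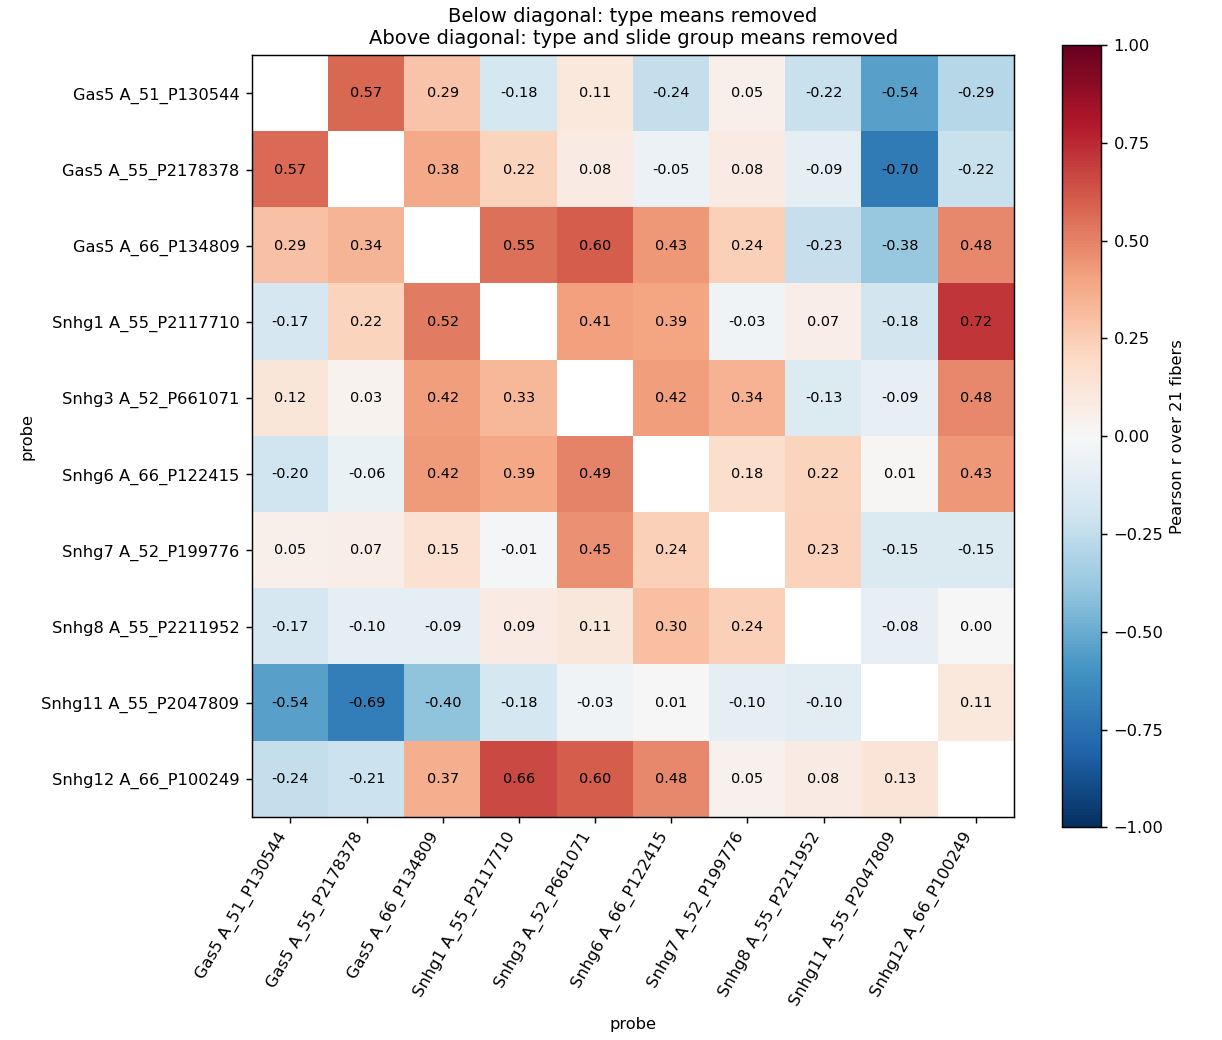
Pearson correlation across 21 fibers between the 10 tested member probes, from deviations from the type mean (below the diagonal) and from the mean of each type and slide group (above it). Snhg1, Snhg3, Snhg6, Snhg12 and the last Gas5 probe share positive values of 0.33 to 0.66 below the diagonal, while all 3 Gas5 probes are negative with Snhg11 (-0.54, -0.69 and -0.40).

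**Figure D5:**
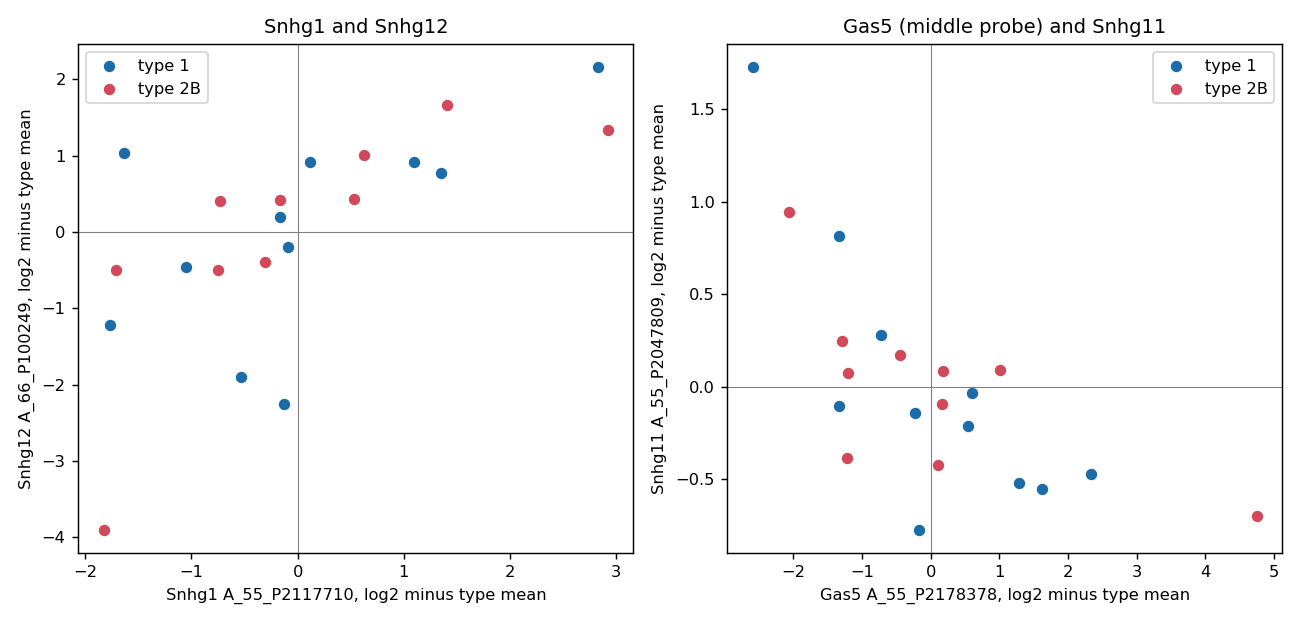
Signal of each fiber as its log2 deviation from the type mean, Snhg12 against Snhg1 (left, r = 0.66) and Snhg11 against the middle Gas5 probe (right, r = -0.69), with type 1 in blue and type 2B in red. The left cloud rises and the right cloud falls in both types.

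The probes most like the first Gas5 probe across fibers, among 16178 that were well above background in every fiber, were 2 probes of unnamed genomic intervals (r = 0.93 each), Fgfr1, a fibroblast growth factor receptor, 8430426J06Rik and LOC100046344 (r = 0.93, 0.92 and 0.92). In that order Snhg1 ranked 10686 and Snhg6 ranked 11217. The probes most like Snhg6, looked at after the values were seen, were Rpl36 (r = 0.86), Gm4910 (0.86), Rps29 (0.85), Gtpbp5 (0.85) and Rpl36-ps8 (0.85). Rpl36 and Rps29 encode ribosomal proteins. The nearest to Snhg1 was Impdh2, an enzyme of guanine nucleotide synthesis, at 0.76.

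The starts of 3 hosts are shown because Snhg1 and Snhg12 varied together and Gas5 is the best known host with a pyrimidine tract at its start. The windows hold 25 bases on each side of the RefSeq start (build GRCm38.p6, plus strand), and the capitals mark the longest unbroken run of C and T on the given strand. Entries were found for 7 of the 8 genes.
Gas5 (chr1:161035141-161035190): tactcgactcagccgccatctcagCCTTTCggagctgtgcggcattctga
Snhg1 (chr19:8723462-8723511): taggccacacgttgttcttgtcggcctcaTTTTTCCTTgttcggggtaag
Snhg12 (chr4:132308653-132308702): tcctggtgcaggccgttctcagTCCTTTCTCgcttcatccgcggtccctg
The run was 6 bases long for this start of Gas5 and 9 for Snhg1 and Snhg12. Counted from the RefSeq start, its first base was at -1 for Gas5, -3 for Snhg12 and 5 for Snhg1. So the run spans the start in Gas5 and Snhg12, and in Snhg1 it lies after it. Among 32851 promoters of the same length, 43.9% held a run of at least 6 bases and 13.33% one of at least 9. Gas5 has a second RefSeq start, whose longest run was 3. The run was 7 for Snhg8, 6 for Snhg7, 5 for Snhg3 and 4 for Snhg11.

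Genes around the hosts' biology were counted from lists set beside the members. Of 9 tested probes for other noncoding hosts, limma called 0 (2 at an unadjusted p under 0.05, and 0 by the methods' t-test), with the largest values for Snhg5 (1.37 at one probe and -1.06 at the other) and Dancr (-0.88). On slide 1 alone 2 of the 9 were called, beside 1413 of all 46977 probes tested. Of 83 probes of protein-coding hosts 1 was called, for Rpl3, a ribosomal protein of the large subunit, which fell by 2.27 in type 2B (standard error 0.47, adjusted p = 0.0022 in limma), and the list's median was -0.11. The count was 0 by the methods' t-test, with Bonferroni and on slide 1 alone, and 2 with the 75th percentile, normexp, the stricter filter, no mouse block, the exchanged names or without S6.4. Of 27 probes for proteins of snoRNA particles and their assembly 0 were called by limma (2 at an unadjusted p under 0.05, 0 by the methods' t-test), with the largest values for Nolc1 (1.18) and Shq1 (-1.004). The 3 snoRNA genes on the array gave 0 calls by limma, 0 at an unadjusted p under 0.05 and 0 by the methods' t-test, with -0.54 for Snora74a, -0.17 for Snora47 and -0.17 for Snord123. Over all probes 3.47% were called higher and 4.09% lower in type 2B.

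Among probes of pathways that act on host RNAs, 4.76% were called for decay and 9.68% for mTOR, beside 7.56% of all probes tested. Of 21 probes for nonsense-mediated and decapping decay 1 was called, for Smg1, the kinase that starts nonsense-mediated decay, which fell by 1.25 in type 2B (adjusted p = 0.021 in limma). The count was 0 by the methods' t-test, with Bonferroni, with mouse or slide as a fixed block, with means per mouse, with the replicate block and on slide 1 alone. Of 31 probes for mTOR signaling and the control of pyrimidine-tract mRNAs 2 were called higher and 1 lower in type 2B. Deptor, an mTOR inhibitor, rose by 3.39 (adjusted p = 8.1e-06 in limma). Of 3 probes for Eif4e, the cap-binding factor, 1 rose by 1.06 (adjusted p = 0.026 in limma), and of 2 probes for Mtor the dimmer fell by 1.42 (adjusted p = 0.045 in limma), being well above background in 4 of 11 and 1 of 10 fibers. The 3 calls became 2 with the 75th percentile, normexp, no filter, the stricter filter, means per mouse, slide fixed or without S6.4. They became 1 with unflagged spots missing, mouse fixed, the replicate block, either set of slides or Bonferroni, and 0 by the methods' t-test and of the 2 probes tested in the authors' table. With a mouse or a fiber left out they ran from 1, without mouse 2, to 3. The 1 call among the decay genes was lost without mouse 2, 3 or 4, and with the exchanged names without mouse 3 or 5.

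Genes of the glucocorticoid receptor and its response, the receptor that Gas5 RNA is known to bind, gave 6 calls among 31 probes, 3 in each direction. That is 19.4%, beside 7.56% of all probes tested (3.47% higher and 4.09% lower in type 2B). Tsc22d3 and Sgk1 rose by 1.54 and 2.42 in type 2B, and Glul, glutamine synthetase, rose by 1.42. Pdk4, which holds back pyruvate dehydrogenase, fell by 3.49, and Cebpb, a transcription factor, fell by 1.32. The 6 calls became 2 with mouse as a fixed block, on slide 1 alone or with Bonferroni, 1 by the methods' t-test, 0 of the 1 probe tested in the authors' table, 4 to 6 in the other alternatives, and 3 without mouse 3 (2 with the exchanged names). The median of the list was -0.13 beside 0.03 over all probes. These genes are given beside Gas5 and no relation to it was tested.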

How the data were processed

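Per the labels, RNA of each fiber was amplified exponentially, labeled with Cy3 and put on 1 array. Strand is not kept by labeling of amplified cDNA. The authors deposited scanner intensity per spot from Agilent Feature Extraction 10.7.3.1 (mm9 annotation), background subtracted within the array, and a table of quantile normalized intensity, used as an alternative, in which the columns of E13.3 and E12.5 follow each other's scanner files. Here spots of a probe were averaged, arrays quantile normalized and log2 taken. R 4.3.3 with limma 3.58.1 fitted type with mouse as a random block (consensus correlation -0.0175). The methods' t-test (Benjamini-Hochberg adjusted, not the paper's permutation procedure), Bonferroni, slide, mouse, filter, background and left-out fibers were alternatives. The fit was tested on simulated data with independent fibers, no mouse or slide effects, and planted changes larger than any member difference in the main fit. That run therefore does not show how the fit handles such effects or smaller changes. No spot was saturated, and the number of arrays limits the precision. Members and lists were chosen with earlier results of these data known. The text names every member probe, up to 5 called genes of a list by size (otherwise the 2 largest), and the 5 probes nearest the brightest Gas5 probe. List genes were matched by array name or a RefSeq synonym. The labels give the mice as male and the methods as female. Replicate numbers did not pair the fibers.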

Additional observations from a re-analysis of the deposited data

Results flagged for a closer look

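A single value far from the rest of its group was looked for in the 10 type 2B fibers and in the 6 mouse means of each type, for the 10 tested member probes, which makes 30 groups. By chance about 1 in 20 such groups would show one. The middle Gas5 probe had its highest type 2B value, 9.81, in fiber E13.3, with the next at 6.07. Snhg12 had its lowest type 2B value, 2.26, in the same fiber, with the next at 5.67. Snhg11 had its highest type 2B mouse mean, 6.56, in mouse 7, which gave 1 fiber, with the next at 5.70. In the authors' table E13.3 carries the column that follows E12.5 and the reverse, so the name and the mouse of this fiber are uncertain while its type is not.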

How the results depend on the processing

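Of 166 member differences recomputed under the alternatives, 144 kept their direction and stayed uncalled, 1 was newly called and 21 changed sign without a call. With means per mouse, 1 member probe was called, the middle Gas5 probe. With a mouse or a fiber left out the count ran from 0 to 1, being 1 without mouse 3 or without E13.3. With the mice of E13.3 and E12.5 exchanged, chosen after the data were seen, the count was 0 in the fit over fibers, with means per mouse and without mouse 3, and 1 without mouse 5. Means per mouse then gave 0.0011 for the first Gas5 probe and -0.0089 for Snhg12. The count was 0 in the other alternatives. With the replicate number as a block it was 0, with -1.68 for the middle Gas5 probe and 0.81 for Snhg6, while Snhg1 turned to 0.12 and Snhg8 to 0.11. Same-numbered fibers did not deviate together (median correlation -0.03 over 10 pairs, own number best in 1). Sign changes under slide 1 alone were 0.30 for the last Gas5 probe, 0.069 for Snhg1, 0.068 for Snhg3, 0.78 for Snhg8 and -0.14 for Snhg11, and under the other slides 0.028 for Snhg7. With slide as a fixed block the first Gas5 probe gave 0.0015 and Snhg11 -0.088, and with mouse fixed Snhg3 gave 0.023 and Snhg11 -0.11. Snhg8 gave 0.37 with the 75th percentile and, with normexp, 0.042, where Snhg1 gave 0.0046. Unflagged spots set to missing gave 0.23 for Snhg8 and -0.16 for Snhg11, and the methods' t-test 0.33 and -0.33. With a mouse or a fiber left out the first Gas5 probe ran from -0.36 to 0.0995, Snhg1 from -0.64 to 0.31, Snhg12 from -0.14 to 1.04, Snhg7 from -0.46 to 0.10, Snhg8 from -0.36 to 0.51 and Snhg11 from -0.11 to 0.28. The cause of these moves was not tested. Probes called over the whole array were 3551, from 2386 to 3566 with a mouse or fiber left out, and from 251 (the 3668 probes of the authors' table) to 3691 otherwise, with 2297, 1386, 1413, 1693, 1064 and 672 for unflagged spots missing, mouse fixed, slide 1, the other slides, the methods' t-test and Bonferroni. The median correlation of the hosts ran from 0.03 to 0.12. Dim probes (Snhg7, Snhg8, Snhg11, Snhg12 and the middle Gas5 probe) are near the background in several fibers, which limits what they can show.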
